A study of Drosophila melanogaster with 23 samples.

Results

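Genes flanking Myb-bound insulator sites were followed in wing imaginal discs, from which the wing and much of the thorax of the adult fly develop. They were 10 transcripts of 10 genes beside 9 of the insulator sites that the study amplified for chromatin immunoprecipitation, out of 16637 transcripts tested. They were *CG14864*, *Zip88E*, *CG4596*, *CG15601*, *CG31100*, *CG17207*, *CG12851*, *FoxP*, *Ykt6* and *Pex5*. They had been selected by transcript with their values in these arrays known, so that genes dim and bright in the control could be set side by side. The mutant and control signals below are therefore those that chose them, and are given as a description. They passed through the fit over all transcripts, and their calls are counted, but no p is printed for any of them and a call is no independent evidence of a change.

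Discs came from male 3rd instar larvae raised on malt medium at 25°C. The *Myb* mutant larvae were hemizygous for *Myb* MH107, a null allele from the mobilization of a P element. The deletion takes in the start of *Myb* together with its neighbour *AlkB* and is lethal at the early pupal stage. The controls were *yw*67 larvae, the yellow-bodied and white-eyed laboratory stock into which the allele had been outcrossed, and the mutant chromosome carries a mutant allele of w as well. Each genotype had 3 biological replicates, hybridized to 12 arrays for the *Myb* mutant and 11 for the control, and technical arrays of 1 replicate were averaged on the log2 scale. Nothing in the labels says how many discs or larvae went into 1 replicate, so the spread between replicates may be partly technical.

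Flies have only this gene of the Myb family, and the protein it encodes binds DNA within a larger complex that also holds E2F, Rb-family and Mip proteins. Insulators are DNA elements, bound by proteins such as BEAF-32 and CP190, that keep the regulatory influence of one gene or chromatin domain from reaching the next. They often lie between neighbouring genes transcribed away from each other. The comparison asks what the genes on both sides of such a site do when Myb is gone, and a site was named after its 2 flanking genes.

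The designed primers of the amplified sites give the DNA at their edges. Those of 4 sites are shown, because both flanking genes could be measured there or because a motif was found. Capitals mark a match on either strand to the Myb consensus, searched by TAACTG, by TAACGG, by CAACTG and by CAACGG, or to CGATA, the core of BEAF-32 sites, and no match to one overlapped a match to the other.
CG14864/Zip88E forward: ccccattgtaaggcgttttg
CG14864/Zip88E reverse: tgtatCAACTGccagactgt
hdm/Ykt6 forward: ttaaaacatttacagaaagttgcgc
hdm/Ykt6 reverse: acatatgcgtagtgtgtgtcag
CG15601/HUWE1 forward: gccgattgtaattcaCAGTTGtc
CG15601/HUWE1 reverse: tttacacagacgaaatgcaagc
CG17207/Desat1 forward: CGATActtatctaacgcattactagttg
CG17207/Desat1 reverse: tttcaacgaaacaatattctcctgg
*CG14864*/*Zip88E* and *CG17207*/*Desat1* are on chromosome 3R, and *hdm*/*Ykt6* and *CG15601*/*HUWE1* on chromosome X. Over 16 primers of 8 of the sites, 20 to 29 bases long, 2 held a Myb consensus match and 1 held CGATA. Among all 54 primers of the 27 amplified regions the shares were 5.56% for each. A match is a description of these letters and no evidence of binding, and the DNA between the primers was not analysed here.

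Of the 10 flanking transcripts, 7 were called higher in the *Myb* mutant, 0 were called lower and 3 were not called. A call required an adjusted p under 0.001 in limma and a signal of at least 500 in at least 1 biological replicate. Over all tested transcripts 1.41% were called in either direction and 0.787% were called higher, and nothing is read from the gap, since the same contrast chose the genes. Among the 7, folds ran from 7.06 to 22.0, with mean mutant signals of 529.6 to 3994 and mean control signals of 75.0 to 297.1. The median log2 change was 3.76 over the 7 called transcripts and 3.74 over all 10, against -0.006 over all tested transcripts. With the looser adjusted p of 0.05, all 10 were called, against 6.41% of all transcripts. Mutant and control replicates were apart in all 10, a separation seen in 29.0% of all transcripts. All 10 reached the signal minimum, but 8 of them reached it in the mutant alone and so had to be higher there to be eligible. In RNA of whole discs, a change in the number of cells of a type and a change in RNA per cell cannot be told apart, and markers of hemocytes and fat body also differed between the genotypes, with values given at the end.

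**Figure D1:**
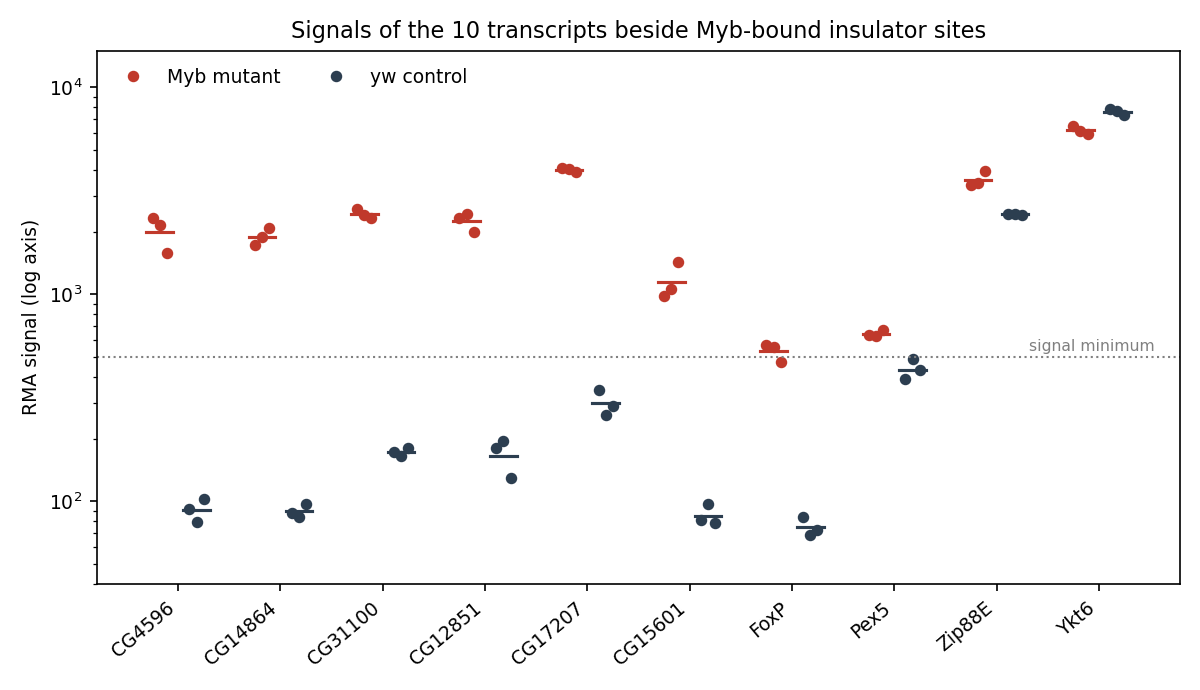
RMA signal on a log axis of each of the 10 flanking transcripts, with 1 point for each biological replicate (mean of its technical arrays), *Myb* mutant left of yw control, and a bar at the mean of the log2 values. In 7 transcripts the control points lie at or below 344.8 and the mutant points at or above 470.8, while Pex5 and Zip88E were 1.49- and 1.47-fold higher and Ykt6 1.23-fold lower in the mutant.

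The first site is shared by *CG14864* and *Zip88E*, a member of the ZIP family of zinc transporters, and shows the contrast within 1 pair. *CG14864* (FBtr0083128, 3R) measured 1726, 1890 and 2081 signal units in the 3 *Myb* mutant replicates, against 87.5, 84.5 and 97.0 in the 3 control replicates. Its dimmest mutant replicate was well above its brightest control replicate, and the log2 change was 4.40 (SE 0.09), a 21.2-fold rise. *Zip88E* (FBtr0290018, 3R) measured 3373, 3454 and 3925 in the mutant and 2436, 2455 and 2421 in the control. Its groups did not overlap either, but the change was 0.55 (SE 0.08), or 1.47-fold, and it was not called. The ratio of the *Zip88E* signal to that of *CG14864* was 1.95, 1.83 and 1.89 in the mutant replicates and 27.9, 29.1 and 25.0 in the control replicates. Probes of different transcripts respond differently, so only the change of such a ratio is informative, and the log2 change of *CG14864* exceeded that of *Zip88E* by 3.85. *CG14864* overlaps the annotated gene *ATPsynO*, and *Zip88E* overlaps *Cp190*, which encodes an insulator protein. Double-stranded cDNA was labelled from random primers, so signals of overlapping genes cannot be told apart by strand.

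At the second pair with values on both sides, the bright gene was the listed one. *Ykt6* (FBtr0071093, X), which encodes a SNARE protein of membrane fusion, measured 6524, 6119 and 5949 in the *Myb* mutant, against 7836, 7645 and 7372 in the control. All mutant replicates were below all control replicates, and the change was -0.30 (SE 0.06), so the mutant signal was 1.23-fold lower, without a call. Across the site lies *hdm*, which encodes a protein of meiotic recombination. For *hdm* (FBtr0071133) the signals were 1360, 1394 and 1439 in the mutant and 62.4, 72.3 and 68.0 in the control, and the log2 change was 4.37 (SE 0.07, limma adjusted p = 1.55e-06, 0.000356 with the replicate number as a block). The study listed *hdm*, like *CG14864* and *CG4596*, as higher on these arrays, so its call is not independent evidence. The *Ykt6* signal exceeded that of *hdm* by 4.80-, 4.39- and 4.13-fold in the mutant replicates and by 125.5-, 105.8- and 108.4-fold in the control replicates. The difference between the 2 changes was 4.67 on the log2 scale. Control signals of *hdm* were under 100, where folds depend on how the background was removed. With every signal under 100 set to 100, chosen for pairs after seeing the data, the control ratios were 78.4, 76.5 and 73.7 and the difference was 4.10, against 3.68 for *CG14864* and *Zip88E*.

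Among the other called genes, *CG4596* (FBtr0082289, 3R) shares its site with *Fdh*, the formaldehyde dehydrogenase gene. Its signals were 2332, 2168 and 1575 in the *Myb* mutant and 92.1, 79.3 and 102.3 in the control. The mutant replicates spread more than those of any other flanking transcript (SD 0.30 on the log2 scale), with replicate 3 the lowest, and the change was 4.46 (SE 0.17), or 22.0-fold. *CG15601* (FBtr0074055, X) lies beside *HUWE1*, which encodes a ubiquitin ligase. It measured 979.6, 1063 and 1425 in the mutant, against 81.6, 97.4 and 78.4 in the control. Here mutant replicate 3 was the highest, the change was 3.74 (SE 0.16), or 13.4-fold, and both groups stayed far apart. With the replicate number as a block, *CG4596* and *CG15601* lost their calls and 5 of the flanking transcripts were called. *CG15601* was also not called without mutant replicate 2.

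*CG31100* and *CG17207* had the most even mutant signals of the called genes. *CG31100* (FBtr0082011, 3R) shares its site with *CG11980*, from which *CG11977* separates it in the annotated gene order. *CG11977* overlaps *CG31100*, so any signal they share cannot be told apart by strand. The *CG31100* transcript measured 2575, 2403 and 2334 in the *Myb* mutant and 173.9, 165.1 and 181.0 in the control. Every mutant replicate was more than 10-fold above every control replicate, with a change of 3.81 (SE 0.07), or 14.1-fold. *CG17207* (FBtr0082682, 3R) is paired with *Desat1*, an acyl-CoA desaturase gene. Its signals were 4060, 4021 and 3903 in the mutant, against 344.8, 262.1 and 290.0 in the control. They were the brightest mutant and control signals among the 7 called transcripts, and the change was 3.75 (SE 0.11), or 13.5-fold. *CG17207* overlaps the annotated genes *Desat2* and *CG46427*, so any signal they share cannot be told apart by strand. The overlap is of whole annotated genes, and *Desat2* had a transcript of its own on the arrays, given below.

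*CG12851* (FBtr0072394, 2R) lies beside *CG2790*. It measured 2332, 2448 and 2003 in the *Myb* mutant and 180.6, 196.1 and 130.0 in the control. Its control replicates had the widest spread of the 10 (SD 0.31), replicate 3 being the lowest, and the change was 3.76 (SE 0.17), or 13.5-fold. Without mutant replicate 1 or mutant replicate 2, *CG12851* was not called.

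*FoxP*, the fly forkhead transcription factor gene of the *FoxP* family, lies beside *hyd*, which encodes a ubiquitin ligase. Its transcript FBtr0113209 (3R) measured 566.2, 557.1 and 470.8 in the *Myb* mutant, against 83.9, 69.1 and 72.8 in the control. Mutant replicate 3 was under the signal minimum and the others just over it, and the change of 2.82 (SE 0.11), or 7.06-fold, was the smallest of the 7. A second transcript of *FoxP*, FBtr0082089, was dim throughout, with 63.4, 65.4 and 68.0 in the mutant and 45.2, 50.6 and 46.1 in the control. Its log2 change was 0.47 (SE 0.07). Its control signal was at percentile 3.7 of all tested transcripts and that of FBtr0113209 at percentile 21.0, both under 100 signal units. The second transcript did not show a rise of the size seen in FBtr0113209. Whether its probes respond to RNA at such signals was not tested.

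*Pex5* (FBtr0070367, X), which encodes the import receptor of peroxisomal matrix proteins, was intermediate. It measured 639.5, 630.1 and 669.0 in the *Myb* mutant, against 389.8, 485.5 and 430.3 in the control. Only the mutant replicates passed the signal minimum, the change was 0.58 (SE 0.09), or 1.49-fold, and *Pex5* was not called. Its partner *CG14803* and the gene *MED18* both overlap it in the annotation.

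**Figure D2:**
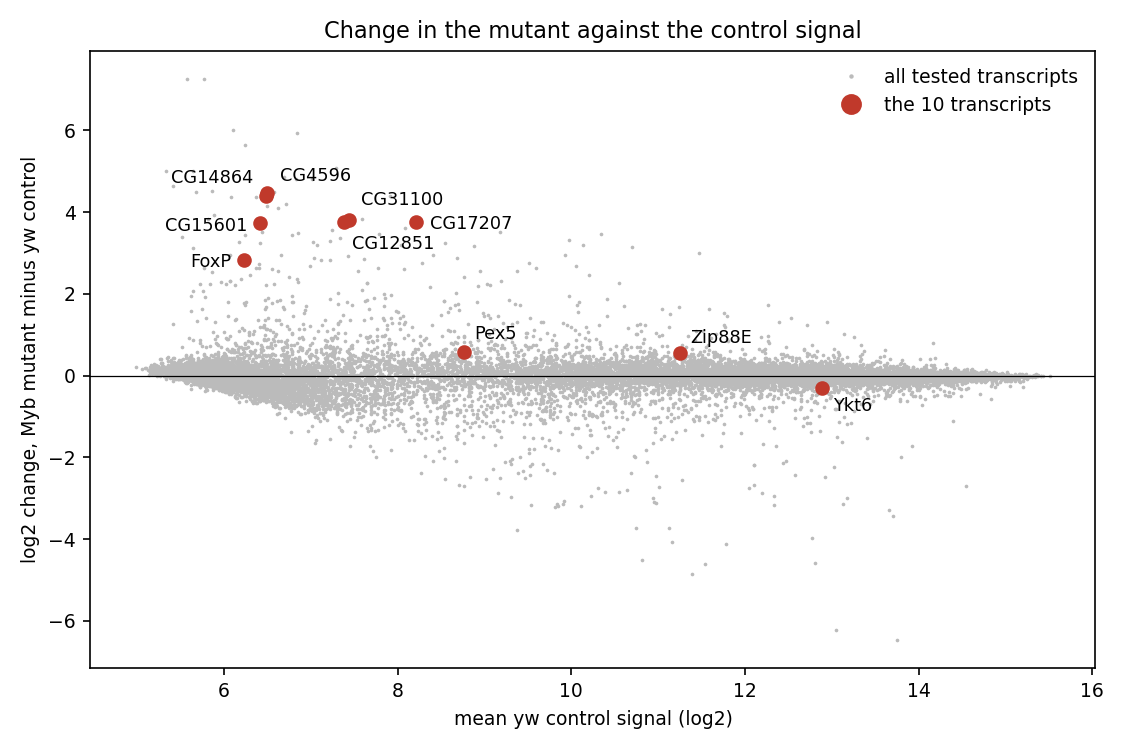
Log2 change (*Myb* mutant minus yw control) against the mean control signal on the log2 scale, for all 16637 tested transcripts in grey and the 10 flanking transcripts in red. The 7 called transcripts lie at changes of 2.82 to 4.46 and control signals of 6.23 to 8.21, and Pex5, Zip88E and Ykt6 lie between -0.30 and 0.58 at brighter control signals.

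The genes had been selected to contrast dim with bright control signals. Taking a mean control signal under 500 as dim, 8 were dim and 2, *Zip88E* and *Ykt6*, were bright. Control signals of the 7 called transcripts ranked between the 21.0 and the 40.5 percentile of all tested transcripts, and their mutant signals between the 44.3 and the 67.8 percentile. *Pex5*, at percentile 43.0 in the control, stood just above them and was at 46.0 in the mutant. *Zip88E* was at 65.8 in the mutant and 60.4 in the control, and *Ykt6* at 75.8 in the mutant and 80.0 in the control. In 4 transcripts, *CG14864*, *CG4596*, *CG15601* and *FoxP*, the mean control signal was under 100, where a fold depends on how the background was removed. With every signal under 100 set to 100, their changes were 4.24, 4.27, 3.51 and 2.40, and none of the 7 calls was lost. No detection flags were analysed here.

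By the median SD, arrays of 1 replicate varied less than replicates in 8 of the 10, all but *CG31100* and *Ykt6*. The median SD between technical arrays was 0.045 to 0.095 per transcript (log2), while the SD between biological replicates, pooled over both genotypes, was 0.058 to 0.25. The largest technical SD of any 1 replicate was higher, from 0.085 (*Ykt6*) to 0.312 (*CG4596*) per transcript. Taking single arrays, the 12 mutant and 11 control arrays were apart in all 10 transcripts. *CG4596*, for example, ran from 1540 to 2368 on mutant arrays and from 74.2 to 117.6 on control arrays. The share of all tested transcripts with single arrays apart was not computed. Technical arrays are not independent replicates and the genes were chosen on this contrast, so nothing is read from that separation. Leaving out each biological replicate in turn kept every change within 0.18 of its value, as in *CG4596* (4.35 to 4.63) and *CG12851* (3.58 to 3.88). In those 6 settings 5 transcripts, *CG14864*, *CG4596*, *CG31100*, *CG17207* and *FoxP*, were called every time.

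The genes across the sites could be named for only part of the pairs. Gene names were available for 1999 transcripts, those with the lowest p in the ranking of a supplementary sheet, and all 234 called transcripts were among them. Of the 8 partners that are not themselves among the 10, *hdm* was identified and called, and the other 7 (*HUWE1*, *Fdh*, *CG11980*, *Desat1*, *CG2790*, *hyd* and *CG14803*) had no called transcript. Their values are not given here, since no table used here pairs their transcripts with a gene. Thus 8 of the 9 sites had 1 flanking gene called and 1 site, *Pex5*/*CG14803*, had none. Whether those 7 partners had a tested transcript is not known, so a missing call there is no measured lack of change. Both flanking genes had values only at *CG14864*/*Zip88E* and *hdm*/*Ykt6*. With the replicate block 6 sites had 1 called gene and 3 had none, since *CG4596* and *CG15601* were no longer called. The genes were chosen on this contrast, so that pattern describes these sites only.

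Around the 10 genes, the 5 annotated genes on each side gave 90 neighbours, of which 20 had an identified transcript. Calls were made in 6 of the 90 (6.67%), with 5 higher and 1 lower, against 206 of 17872 annotated genes (1.15%) with a called transcript. Of the 90 neighbours 86 were protein-coding, while the 17872 genes are of every type, so these shares are not like for like. The 6 also include *hdm*, which the study had listed as higher. Neighbours overlap or share sites with genes chosen for their change, and no test was made of this difference. With the replicate block 2 of the 6, *hdm* and *CG14695*, were called.

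**Figure D3:**
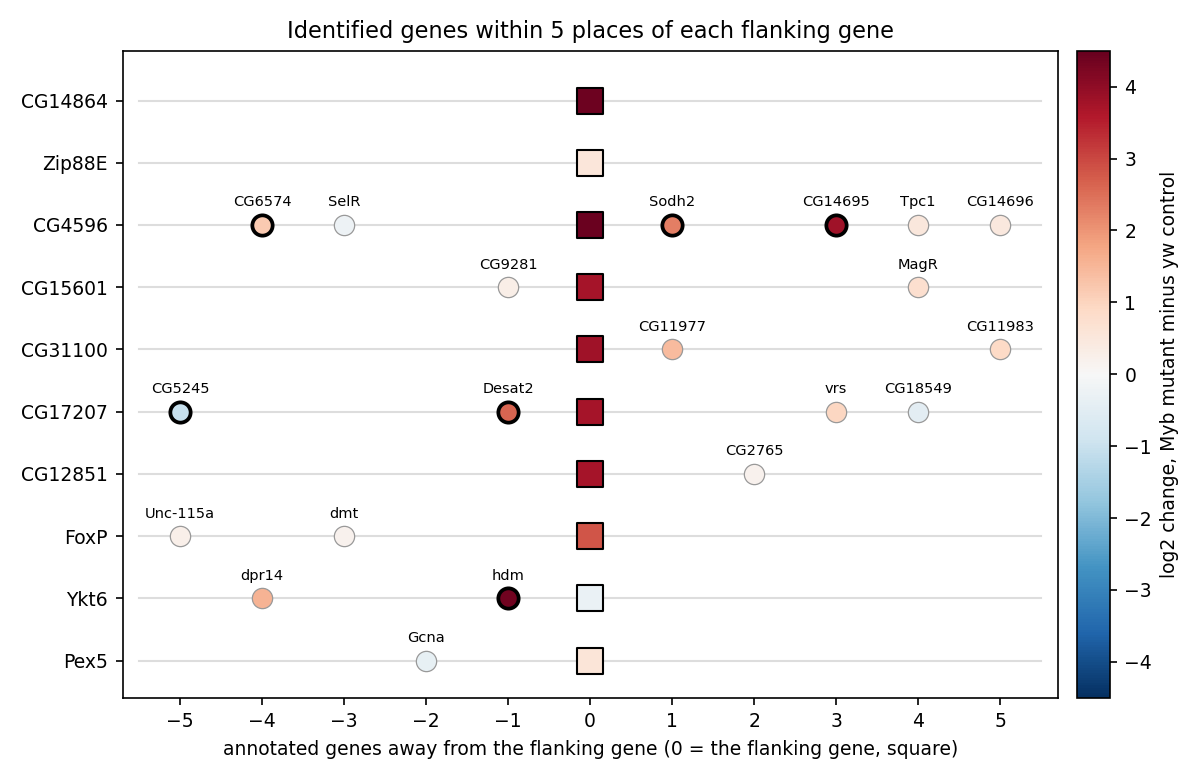
Log2 change (*Myb* mutant minus yw control) as colour for each flanking gene (square) and for each identified gene within 5 places of it in RefSeq gene order (circle), with a heavy outline for called neighbours. Called neighbours lie beside CG4596, CG17207 and Ykt6, and no neighbour of CG14864 or Zip88E was identified.

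Near *CG4596* lay 3 called genes. *CG14695*, 3 places away, measured 2915, 2643 and 2619 in the *Myb* mutant, against 208.1, 169.8 and 201.5 in the control, and the log2 change was 3.82 (SE 0.10, limma adjusted p = 5.88e-06). That change was close in size to those of the flanking genes. *Sodh2*, a sorbitol dehydrogenase gene adjacent to *CG4596*, measured 530.3, 542.6 and 630.0 in the mutant and 98.6, 144.6 and 107.5 in the control, and the log2 change was 2.30 (SE 0.16, adjusted p = 0.000376). On the other side *CG6574* rose by 1.17 (SE 0.09, adjusted p = 0.000498), and *SelR* had a log2 change of -0.23 (SE 0.07, adjusted p = 0.116). *Fdh*, which lies on that side next to *CG4596*, had no identified transcript. With the replicate block *Sodh2* and *CG6574* were not called (limma adjusted p = 0.00517 and 0.00264).

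Next to *CG17207*, the desaturase gene *Desat2* measured 530.3, 555.6 and 487.4 in the *Myb* mutant and 77.1, 104.1 and 75.5 in the control. Its change was 2.63 (SE 0.14, adjusted p = 0.000131), smaller than that of *CG17207*, which it overlaps. *CG5245*, 5 places away, was the called gene that fell, with 443.6, 441.0 and 471.1 in the mutant against 903.7, 976.1 and 876.7 in the control (-1.02, SE 0.07, adjusted p = 0.000362). With the replicate block *Desat2* and *CG5245* were not called (limma adjusted p = 0.00155 and 0.00707). Beside *CG31100*, *CG11977* measured 157.7, 136.5 and 150.7 in the mutant and 53.7, 54.6 and 57.3 in the control, and the log2 change was 1.42 (SE 0.08). Its adjusted p was 0.000136, but its signals were under the minimum, so it was not called, and it overlaps *CG31100*. Near *Ykt6*, *dpr14* was likewise under the minimum, with a log2 change of 1.58 (SE 0.17, adjusted p = 0.00275).

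Flanking genes of the other amplified Myb-bound sites gave a mixed picture. Of 23 listed genes 11 had an identified transcript, all 11 had a higher mean in the *Myb* mutant (0.15 to 7.25, median 0.42), and 3 were called higher. The names came from a ranking by p, so identified genes are those that differed most. These were *CG1571* at 7.25 (SE 0.12, adjusted p = 1.49e-06), *swa*, which acts in RNA localization in the oocyte, at 6.02 (SE 0.09), and *fs(1)N*, needed for egg formation, at 4.47 (SE 0.11). The study listed all of them as higher on these arrays. Control signals of *CG1571* were 62.8, 45.7 and 56.6, those of *swa* 68.7, 76.3 and 61.1, and those of *fs(1)N* 81.6, 107.7 and 90.9, all close to those of the dimmest of the 10. *Ir68b*, an ionotropic receptor gene, measured 3801, 3618 and 3569 in the mutant against 182.2, 58.2 and 208.2 in the control, and its change of 4.81 (SE 0.47, adjusted p = 0.00187) was not called. Of 8 genes at sites without Myb, 0 were identified, so they had no called transcript and gave no values to compare.

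Genes of the proteins that bind such sites were listed beside them. Of 12 insulator protein genes 3 were identified and 0 called. BEAF-32 measured 2811, 3000 and 3256 in the *Myb* mutant and 2001, 1845 and 2178 in the control, and the log2 change was 0.59 (SE 0.09, adjusted p = 0.0117). The changes of *mod(mdg4)* and *ZIPIC* were -0.21 (SE 0.06) and -0.21 (SE 0.07). Of 11 genes of the Myb complex 2 were identified, with *E2f2* at -0.37 (SE 0.10, adjusted p = 0.0915) and *mip130* at 0.25 (SE 0.06, adjusted p = 0.0457), and of 13 Polycomb group genes 1, *esc*, at 0.16 (SE 0.06). None of these was called at 0.001, while 2, BEAF-32 and *mip130*, passed an adjusted p of 0.05.

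Transcripts with the most similar profile were sought by Euclidean distance over the 6 replicate values, each minus the control mean of its transcript. Nearest to the mean of the 8 dim flanking transcripts (mean change 3.41) was *CG13148* at 0.081, with 1198, 1247 and 1159 in the *Myb* mutant and 112.5, 107.9 and 108.4 in the control. It was followed by *yin*, *RIC-3*, *Lsd-1* and *CG1909* at 0.284 to 0.419. *Pex5* pulled that mean down. Without *Pex5*, a choice made after seeing the data, the mean change was 3.82 and the nearest transcript was *CG14695* at 0.215, the neighbour of *CG4596*, then *CG31776*, *CG6927*, *CG13694* and *CG13148*. The distances rest on 6 values and say nothing of shared control.

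Across the whole series, medians of single arrays lay between 996 and 1060, and log2 signals correlated at a median of 0.994 between replicates of 1 genotype. *Myb* measured 4586, 4929 and 4717 in the *Myb* mutant and 15216, 15119 and 16233 in the control (-1.71, SE 0.06, adjusted p = 3.54e-05, 0.00171 with the replicate block), from probes whose place relative to the deleted part is not given. *AlkB* measured 48.3, 50.9 and 46.6 in the mutant, against 608.3, 757.7 and 642.6 in the control. Markers of other tissues moved with genotype. The summed signal of the 6 identified hemocyte genes of 7 listed was 1338 to 1501 in the mutant and 28011 to 37915 in the control, that of 3 of 4 fat body genes, none of them called, was 35199 to 66097 in the mutant and 3223 to 9472 in the control, and of 6 male germline genes only *vas* was identified, at 179.3 to 277.9 in the mutant and 54.0 to 55.5 in the control. All 6 hemocyte genes were called lower, and 3 of them, *Hml*, *PPO1* and *PPO2*, also with the replicate block. The tracheal gene *btl* fell by 1.32 (not called with the block), the muscle precursor genes *Him* and *zfh1* had changes of -0.86 and -0.84 without a call, and none of 12 wing disc markers was identified, which means that none was called and that the labelled tissue could not be checked by its markers. Mutant replicate 3 had the highest fat body sum. Among the flanking transcripts it was the highest mutant replicate for *CG14864*, *Zip88E*, *CG15601* and *Pex5*. It was the lowest for *CG4596*, *CG31100*, *CG17207*, *CG12851*, *FoxP* and *Ykt6*. The part of these shifts in the signals of the 10 genes was not tested.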

How the data were processed

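Wing disc RNA of both genotypes was measured on one-color NimbleGen arrays. Per the study's methods, the authors corrected background, normalized by quantiles and summarized probes by median polish with RMA in ArrayStar, and deposited 1 linear signal intensity per transcript and array. Of 21051 transcripts, 4414 (21.0%) gave 14.158 on every one of the 23 arrays and were not tested. Signals were converted to log2, technical arrays averaged, and the 6 means compared with limma 3.58.1 in R 4.3.3 (lmFit, eBayes, two-sided, Benjamini-Hochberg over 16637 transcripts). Of these transcripts, 9754 reached the signal minimum of 500. The fit was also run on simulated data, with changes only in transcripts of control signal over 500 and with independent replicates. That run does not cover control signals as dim as those of the called flanking transcripts, or replicates that deviate together. The number of biological replicates limits the precision. No other per-sample column was present (0).

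Replicates sharing a number deviated together across genotypes, with correlations of 0.20, 0.18 and 0.28. The labels give no source for such a pairing. The fit behind the reported calls had no block. Calls that ended with the replicate number as a block are named with the results or in the closing section. The block gave 61 calls, against 234 without it.

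The members and lists were chosen with earlier results of these data known. Named genes were the 10 transcripts, their identified partners, other transcripts of the same genes, called list genes and the 5 nearest profiles. Neighbours without a call, and uncalled genes of lists, were named after their values were seen. Symbols came from a supplementary sheet and, for 1984 of 1999 transcripts, matched RefSeq (Release 6), used for names and gene order alone, since the build behind the arrays is not given in the sources used here. Alternatives were adjusted p under 0.05, no signal minimum, the methods' t-test, all arrays as a random block (statmod 1.5.0), the replicate block, median centring, a floor of 100, an intensity trend with robust prior, the first technical array alone, and each replicate left out.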

Additional observations from a re-analysis of the deposited data

How the results depend on the processing

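Of 90 recomputed member changes, 87 moved by less than the replicate spread and 0 reversed, with a largest shift of 0.42. The 3 that moved more included *CG14864* (4.24) and *FoxP* (2.40) with signals under 100 set to 100, by that construction. The other was *CG14864* on the first technical array alone (4.55). Most of the 90 came from settings that left out a replicate. With 3 replicates per genotype, such a shift always stays below the replicate SD pooled over both genotypes. The count of 87 is therefore largely fixed by the design, and no robustness is read from it.

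Calls among all transcripts were 1066 (570 higher, 496 lower) at an adjusted p under 0.05 and 1184 with all arrays as a random block. The methods' t-test on the 6 means after adjustment gave 17 (16 higher, 1 lower), and it takes no variance from other transcripts. With the replicate block there were 61 (43 higher, 18 lower). Leaving out 1 replicate gave 70 to 317 calls, being 70, 71 and 121 for mutant replicates 1 to 3, and 106, 317 and 100 for control replicates 1 to 3. The rise without control replicate 2 runs against the loss of samples, and its cause was not tested.

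The methods' t-test called 1 of the 10 transcripts, *CG31100*, and the replicate block 5. Genes at the other Myb-bound sites gave 6 calls at 0.05, 7 with the random block and 5 with the intensity trend. Insulator and Myb complex genes gave 2 calls at 0.05 and 2 with the random block. Neighbours gave 12 calls at 0.05, 10 with the random block, 1 by the methods' t-test (*hdm*), 2 with the replicate block, and 2 to 6 without 1 replicate. They numbered 6 without control replicate 2, and in each of the 5 other settings *hdm* and *CG14695* were the 2 called. The replicate block also ended the calls of *Myb*, *btl*, *NimC1*, *srp*, *eater* and *CG13694*, and changed no other call among the genes named. Dim control signals, without detection flags, limit the folds.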
